A study of Mus musculus with 20 samples.

Results

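The genes of the mouse major histocompatibility complex (MHC) and of the machinery that feeds it with peptides were followed in brain tissue 7 weeks after stroke. They were taken as the protein-coding genes whose symbol starts with H2-, which gave 34 genes, and 12 genes added by name: B2m, Cd74, Ciita, Nlrc5, Tap1, Tap2, Tapbp, Tapbpl, Psmb8, Psmb9, Psmb10 and Erap1. These 46 genes are part of the 46078 genes counted in 20 libraries. By role they comprised 2 classical class I heavy chains, 22 non-classical class I genes, 4 classical class II chains, 5 non-classical class II chains, 2 partner chains (B2m and Cd74), 2 transactivators (Nlrc5 and Ciita) and 8 genes of peptide supply and loading. The remaining member, H2-Ke6, carries the H2- symbol by its position in the complex and is not an MHC chain.

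All animals were wild-type C57BL/6J mice of 18 months that had undergone DH stroke, an occlusion of the distal middle cerebral artery followed by hypoxia. From 1 week after stroke they received subcutaneous injections 3 times a week for 6 weeks, either of PBS as the vehicle or of HPBCD at 4 g/kg, the hydroxypropyl form of β-cyclodextrin, whose sugar ring can hold lipids such as cholesterol. RNA was taken from the peri-infarct region, the tissue bordering the lesion once the infarct had been cut away, and from the corresponding contralateral region of the same brains. This gave 4 groups of 5 libraries, vehicle contralateral, vehicle peri-infarct, HPBCD contralateral and HPBCD peri-infarct, and within a treatment the libraries of the same number came from 1 animal. The contralateral tissue therefore also came from brains with a stroke, and no unoperated brain is part of these groups.

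Class I molecules, made of a heavy chain and the light chain B2m, display peptides from inside the cell to CD8+ T cells and can be made by almost every cell. The peptides are cut by the proteasome, whose interferon-induced subunits are Psmb8, Psmb9 and Psmb10, carried into the endoplasmic reticulum by Tap1 and Tap2, trimmed by Erap1 and loaded with the help of Tapbp. Nlrc5 drives transcription of class I genes. Class II molecules display ingested material to CD4+ T cells, and their chains H2-Aa, H2-Ab1 and H2-Eb1 travel with the invariant chain Cd74 until H2-DM exchanges its remnant for a peptide, a step that H2-O restrains. Ciita drives class II transcription, and in the brain class II is low at rest and is carried mainly by activated microglia and by macrophages of the borders and vessels.

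Between 14445021 and 22171627 counts fell in genes per library, with a median of 19008532, and values are given as counts per 1000000 gene counts (CPM) of the library after TMM scaling, where 3 counts correspond to between 0.135 and 0.208 CPM. The neuronal gene Snap25 lay at 1030 to 6050 CPM and the myelin gene Mbp at 2480 to 10400 CPM in every library, and the liver gene Alb reached at most 0.276 CPM. HPBCD contralateral replicate 4 stood apart in its reads outside genes (9.5%) and in its reads that overlapped several genes (8.03%), the highest shares of the 20 libraries. Groups are named after the sample titles. As a check of the treatment labels, a list of 33 genes tied by name to HPBCD in peri-infarct tissue was followed, of which 32 were tested: 0 moved in the listed direction, 32 moved in the other direction, and 18 of those were called (adjusted p under 0.05, edgeR's quasi-likelihood test). The list had been chosen on these same animals. The direction of that list thus runs against the titles, and whether the titles of the treatments or the signs of the list were exchanged was not settled. Each difference between treatments is therefore given as one between libraries labelled HPBCD and libraries labelled vehicle, and every such difference and interaction would change sign if the titles were exchanged.

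Of the 46 genes, 39 lie on chromosome 17, between positions 33915899 and 37483552 of GRCm38. In at least 1 comparison 31 genes passed the filter on low counts, and 26 passed it in each of the 5 comparisons. The other 15 were too low: 7 had no count in any library and the other 8 had at most 80 counts over all 20 libraries, and 13 of the 15 were non-classical class I genes. Members that entered a comparison through the group where they were high had to differ, so the counts of members below describe those that passed and are read beside the share of all tested genes. This bears on Ciita, H2-DMb2, H2-M5, H2-Oa and H2-Q1, the 5 members tested in some comparisons and not in others. Per kilobase of exon, and in mean CPM of the HPBCD peri-infarct libraries, the order of the 10 highest members was B2m (351), H2-D1 (115), H2-K1 (57.4), Cd74 (47.3), Tapbp (23), Psmb10 (16.7), H2-T23 (13.8), H2-Eb1 (12.8), H2-Ab1 (11.1) and H2-Aa (6.77). The same measure was 0.564 for Nlrc5 and 0.17 for Ciita, so both transactivators sat far below these 10.

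Promoter sequences are shown for B2m, 3 class I heavy chains and 2 class II chains, because the text below returns to these genes and their promoters are known for shared short elements. The set of RefSeq promoters used here (GRCm38.p6) held a start site for 38 of the 46 genes. Cd74, Nlrc5, Ciita, H2-T24, H2-Ab1, H2-Q1, Tapbpl and Tap2 were not matched in that set, which does not show that RefSeq lacks them. Each line gives a stretch of 180 bases in the direction of transcription, and capitals mark matches on either strand to 4 strings of letters: GAAANNGAA, the core of an interferon response element, TGACG, the core of the X2 box, ATTGG, the core of the Y box, and GGGATTCCC, a site of the NF-kB type.
B2m (chr2:122147507-122147686, plus strand): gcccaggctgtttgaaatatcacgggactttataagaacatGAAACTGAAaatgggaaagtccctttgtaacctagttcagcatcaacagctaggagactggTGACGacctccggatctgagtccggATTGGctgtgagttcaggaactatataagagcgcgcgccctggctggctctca
H2-K1 (chr17:34000348-34000527, minus strand): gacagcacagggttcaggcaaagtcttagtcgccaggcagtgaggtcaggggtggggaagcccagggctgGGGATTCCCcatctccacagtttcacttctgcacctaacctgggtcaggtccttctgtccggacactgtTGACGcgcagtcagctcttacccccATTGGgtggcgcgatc
H2-D1 (chr17:35262914-35263093, plus strand): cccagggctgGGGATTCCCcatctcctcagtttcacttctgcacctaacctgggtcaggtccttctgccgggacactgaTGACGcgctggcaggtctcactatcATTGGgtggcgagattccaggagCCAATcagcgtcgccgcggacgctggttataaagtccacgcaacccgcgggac
H2-Q7 (chr17:35438975-35439154, plus strand): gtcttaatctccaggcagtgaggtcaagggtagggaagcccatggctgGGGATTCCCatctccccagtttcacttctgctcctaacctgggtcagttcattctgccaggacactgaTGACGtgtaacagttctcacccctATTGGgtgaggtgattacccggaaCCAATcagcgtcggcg
H2-Aa (chr17:34287824-34288003, minus strand): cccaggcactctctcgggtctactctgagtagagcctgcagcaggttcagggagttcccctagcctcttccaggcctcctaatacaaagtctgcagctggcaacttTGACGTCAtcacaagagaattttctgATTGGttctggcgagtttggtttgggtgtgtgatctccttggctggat
H2-Eb1 (chr17:34305687-34305866, plus strand): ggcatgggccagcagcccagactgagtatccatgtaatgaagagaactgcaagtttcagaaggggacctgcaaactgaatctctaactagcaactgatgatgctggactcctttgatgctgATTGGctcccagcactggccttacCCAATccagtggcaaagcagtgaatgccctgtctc

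In H2-K1, H2-D1 and H2-Q7 the NF-kB string stood upstream of TGACG and ATTGG, with its first base 110, 170 and 132 bases before the start site. The B2m stretch held no match to that string, one of several forms such a site can take, but had the interferon string 139 bases before the start. TGACG preceded ATTGG on the strand of the gene in B2m, H2-K1, H2-D1, H2-Q7 and H2-Aa, with starts 24 to 26 bases apart, whereas the H2-Eb1 stretch held ATTGG on both strands and no TGACG. In the 250 bases before the start site, ATTGG occurred in 32 of 38 members (84.2%) against 33.8% of 32851 promoters, and TGACG in 15 members (39.5%) against 17.8%. GGGATTCCC occurred in H2-D1, H2-K1, H2-Q6 and H2-Q7 (10.5% of members) against 0.301% of promoters, and GAAANNGAA in B2m, Erap1, H2-T22 and H2-T23 (10.5%) against 7.13%. The ordered pair with that spacing, a spacing chosen after these sequences had been seen, was found in 6 members (15.8%) and in 0.103% of promoters. In these shares a member counted once if any of its start sites matched, whereas among all promoters each start site counted separately. Several members are copies of one another, so their matches are not separate events, and a match of letters describes the sequence and no binding.

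The first question is how peri-infarct tissue differed from the opposite hemisphere in libraries labelled vehicle. H2-K1, H2-D1, B2m, Tap1 and the transactivator Nlrc5 rose about 2- to 4-fold with no overlap between the groups, while H2-Ab1 and Cd74 of class II rose by like amounts with a wide spread between libraries. Of 28 members tested with edgeR's quasi-likelihood test, 18 were higher at an adjusted p under 0.05 (64.3%) and 0 were lower, where 10.5% of all 15801 genes tested were higher and 9.7% lower. The median log2 fold change was 1.19 over the members tested and 0.01 over all genes tested.

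H2-K1, a classical class I heavy chain (ENSMUSG00000061232, chromosome 17, 33996017 to 34000347, minus strand), measured 43.5, 51.5, 43.4, 29.9 and 33.7 CPM in the contralateral libraries and 73.9, 60.1, 193, 111 and 92.0 CPM in the peri-infarct libraries. The groups did not overlap, and peri-infarct replicate 3 was the highest. H2-K1 rose by a log2 fold change of 1.38 (SE 0.28, adjusted p = 0.00779). H2-D1, the other classical heavy chain (ENSMUSG00000073411, chromosome 17, 35262730 to 35267499, plus strand), measured 80.6, 91.5, 79.8, 52.1 and 69.4 CPM against 128, 97.3, 321, 209 and 155 CPM and rose by 1.27 (SE 0.28, adjusted p = 0.0105), again without overlap. B2m, the light chain both need (ENSMUSG00000060802, chromosome 2, 122147686 to 122153083, plus strand), measured 98.7, 124, 106, 76.0 and 101 CPM against 141, 136, 324, 226 and 173 CPM. Its rise was 0.97 (SE 0.23, adjusted p = 0.0132), and the lowest peri-infarct library lay above the highest contralateral one.

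Nlrc5 and 4 of the 8 genes of peptide supply and loading rose as well. Nlrc5 measured 1.05, 1.42, 0.889, 0.762 and 0.936 CPM in contralateral and 2.6, 2.05, 8.93, 4.1 and 2.73 CPM in peri-infarct libraries, a rise of 2.0 (SE 0.41, adjusted p = 0.00768). That was the largest log2 fold change among the 28 members, with no overlap and with replicate 3 far above the rest. Tap1, a subunit of the peptide transporter, measured 3.19, 4.69, 4.68, 3.37 and 3.15 CPM against 6.53, 5.8, 15.0, 9.95 and 6.8 CPM and rose by 1.20 (SE 0.27, adjusted p = 0.0111), without overlap. The 4 that rose were Tap1, Psmb8 (1.20, SE 0.32, adjusted p = 0.0234), Tapbp (0.68, adjusted p = 0.0235) and Erap1 (0.60, SE 0.17, adjusted p = 0.0264). Psmb9 (0.82, adjusted p = 0.0657), Tap2 (0.39, adjusted p = 0.114), Tapbpl (0.29, adjusted p = 0.224) and Psmb10 (-0.37, adjusted p = 0.0519) did not pass.

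Among the class II chains 1 of 3 tested passed, and the libraries of each group were spread widely. H2-Ab1, the beta chain of I-A, measured 1.38, 6.38, 4.21, 2.5 and 1.72 CPM in contralateral and 8.67, 2.36, 19.3, 16.6 and 8.29 CPM in peri-infarct libraries. Its 4 other peri-infarct libraries lay above every contralateral library, but replicate 2, at 2.36 CPM, lay among them. H2-Ab1 rose by 1.76 (SE 0.53, adjusted p = 0.0374). Cd74 measured 3.69, 17.9, 11.3, 8.27 and 4.87 CPM against 23, 6.82, 58.2, 40.6 and 23 CPM, with the same low library, and rose by 1.71 (SE 0.53, adjusted p = 0.0404). H2-Aa (1.54, SE 0.53, adjusted p = 0.0591) and H2-Eb1 (1.55, SE 0.55, adjusted p = 0.065) had log2 fold changes of that size without passing. With the animal as a block, H2-Ab1 (adjusted p = 0.0692), Cd74 (adjusted p = 0.0665), H2-DMb1 (adjusted p = 0.0669), H2-Ob (adjusted p = 0.0836) and H2-T24 (adjusted p = 0.0945) no longer passed, and 13 members remained called.

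The non-classical members split. H2-DMa, a chain of the peptide exchanger, was even across contralateral libraries (11.4, 11.6, 11.6, 12.2 and 11.2 CPM) and lay at 17.6, 14.2, 26.1, 17.1 and 14.8 CPM in peri-infarct tissue, with no overlap. It rose by 0.62 (SE 0.16, adjusted p = 0.0179), and the 3 other non-classical class II genes tested rose as well, H2-DMb1 by 1.36, H2-Oa by 1.4 and H2-Ob by 1.19. Of 8 non-classical class I genes tested, H2-Q4, H2-Q6, H2-Q7 and H2-T24 rose by 0.81 to 1.49, whereas H2-T23, the mouse Qa-1 gene whose product is read by NK cell receptors, measured 17.8, 25.2, 28.8, 16.0 and 22.3 CPM against 23.7, 22.9, 32.6, 27.5 and 18.0 CPM. H2-T23 (0.17, adjusted p = 0.549) and H2-T22 (-0.02, adjusted p = 0.953) overlapped throughout. Reads of H2-Q6, H2-Q7 and H2-T22 are less certain, since over 10% of their 75-base stretches recur in another gene (17.85%, 16.95% and 18.46%), as is so for H2-DMb1 (15.84%), H2-DMb2 (16.14%) and H2-Q1 (10.95%).

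The vehicle calls rested on a few libraries. Leaving out 1 library at a time left between 7 and 21 members called, with 8 without peri-infarct replicate 3, 7 without peri-infarct replicate 4, 11 without contralateral replicate 3, 7 without contralateral replicate 5 and 21 without peri-infarct replicate 2. B2m, H2-D1, H2-K1, H2-DMa, H2-Oa, Nlrc5 and Tap1 were called in the full set and in each of those 10 fits, although H2-Oa entered through its peri-infarct values and was not tested with at least 10 counts in every library.

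**Figure D1:**
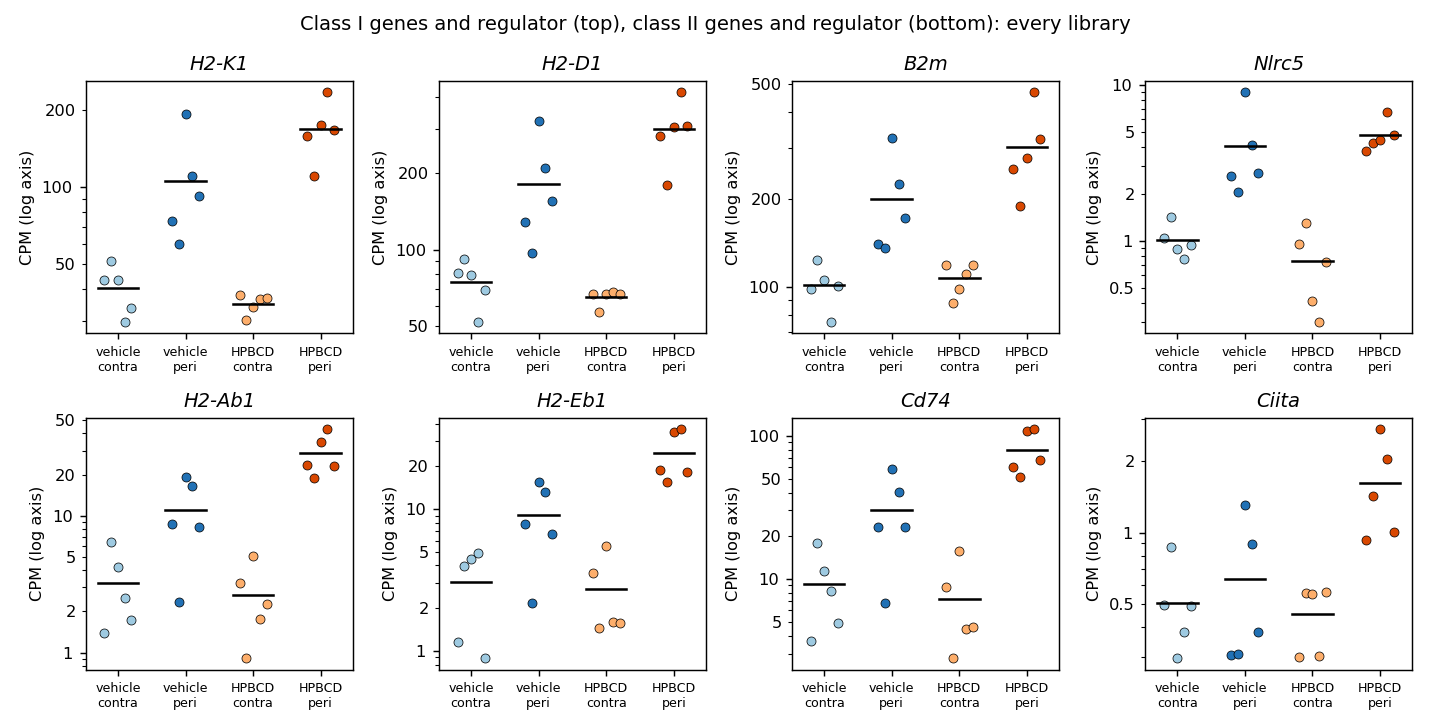
Normalised level (CPM, log axis) of 4 class I genes (H2-K1, H2-D1, B2m and the regulator Nlrc5, top) and 4 class II genes (H2-Ab1, H2-Eb1, Cd74 and the regulator Ciita, bottom) in every library, 5 per group, with bars at the group means. All HPBCD peri-infarct points lie above all contralateral points of that treatment, and the vehicle peri-infarct points of Cd74 run from 6.82 to 58.2 CPM.

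The same comparison in the libraries labelled HPBCD gave larger differences, with class II in front. H2-Aa, H2-Ab1 and Cd74 were about 11-fold higher in peri-infarct than in contralateral tissue, the classical class I chains between 4- and 5-fold. Of 30 members tested, 25 were higher (83.3%) and 2 were lower (H2-M5 and Psmb10), where 30.3% of all 16047 genes tested were higher and 24.3% lower. The median log2 fold change was 1.86 over the members tested and 0.03 over all genes tested. By class the medians were 3.42 for 3 class II chains, 2.22 for 2 class I chains, 2.16 for 4 non-classical class II genes, 1.46 for 8 supply and loading genes and 0.81 for 9 non-classical class I genes.

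Class II chains separated the regions completely. H2-Aa, the alpha chain of I-A (ENSMUSG00000036594, chromosome 17, 34282744 to 34287823, minus strand), measured 4.15, 0.353, 5.17, 0.609 and 1.64 CPM in contralateral and 21.4, 16.8, 32.3, 37.3 and 20.6 CPM in peri-infarct libraries. It rose by 3.42 (SE 0.51, adjusted p = 0.000106), with contralateral replicates 2 and 4 under 1 CPM. H2-Ab1 measured 3.2, 0.908, 5.11, 1.75 and 2.26 CPM against 23.5, 18.8, 34.7, 43.0 and 23 CPM and rose by 3.44 (SE 0.37, adjusted p = 7.39e-06). H2-Eb1, the beta chain of I-E (ENSMUSG00000060586, chromosome 17, 34305867 to 34316674, plus strand), measured 3.55, 1.46, 5.52, 1.6 and 1.58 CPM against 18.8, 15.6, 35.0, 36.6 and 18.2 CPM. In all 3 chains the lowest peri-infarct library lay above the highest contralateral one. H2-Eb1 rose by 3.18 (SE 0.39, adjusted p = 2.09e-05). The gene of its partner alpha chain, annotated as a pseudogene (H2-Ea-ps), had 0 counts in all 20 libraries.

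Cd74 followed at a higher level, with 8.79, 2.78, 15.7, 4.42 and 4.57 CPM in contralateral and 60.3, 51.7, 107, 111 and 67.2 CPM in peri-infarct libraries. Its rise of 3.46 (SE 0.41, adjusted p = 1.71e-05) was the largest log2 fold change of any member. Ciita, the class II transactivator, measured 0.3, 0.555, 0.552, 0.304 and 0.564 CPM against 0.926, 1.42, 2.72, 2.04 and 1.01 CPM and rose by 1.81 (SE 0.37, adjusted p = 0.00113), without overlap, having entered through its peri-infarct values. H2-DMa measured 8.44, 7.57, 8.9, 7.16 and 9.14 CPM against 20.3, 19.1, 18.2, 23.8 and 19.4 CPM and rose by 1.29 (SE 0.11, adjusted p = 1.74e-06). Every non-classical class II gene tested rose, H2-DMb1 by 2.99, H2-DMb2 by 2.41 and H2-Ob by 1.90. H2-Oa was too low to enter this comparison, at 0.138 to 0.533 CPM against 0.203 to 1.55 CPM.

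Summed class I chains were tighter than summed class II chains between contralateral libraries, with a highest over lowest value of 1.21 against 5.8. Between peri-infarct libraries the spread was about the same (2.23 against 2.29). H2-K1 measured 38.0, 30.2, 34.2, 36.5 and 36.9 CPM in contralateral and 158, 111, 174, 234 and 167 CPM in peri-infarct libraries and rose by 2.26 (SE 0.16, adjusted p = 5.95e-07). H2-D1 measured 67.1, 56.6, 67.1, 68.4 and 66.8 CPM against 281, 180, 303, 416 and 308 CPM and rose by 2.19 (SE 0.17, adjusted p = 9.86e-07). Peri-infarct replicate 2 was the lowest and replicate 4 the highest for both. B2m measured 119, 88.1, 98.4, 111 and 119 CPM against 254, 189, 277, 466 and 323 CPM, rising by 1.49 (SE 0.19, adjusted p = 3.63e-05). Nlrc5 measured 0.949, 1.31, 0.414, 0.304 and 0.733 CPM against 3.79, 4.26, 4.46, 6.69 and 4.74 CPM, rising by 2.62 (SE 0.31, adjusted p = 1.83e-05). Neither gene overlapped between regions.

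Of the non-classical class I genes 6 of 9 rose and H2-M5 fell. H2-Q7 measured 0.799, 0.656, 0.828, 1.52 and 2.43 CPM against 4.63, 3.2, 4.8, 6.24 and 4.74 CPM and rose by 1.93 (SE 0.33, adjusted p = 0.000282). H2-T23 measured 27.3, 18.9, 22.1, 26.5 and 24.3 CPM against 33.7, 25.8, 44.4, 58.2 and 37.9 CPM and rose by 0.74 (SE 0.18, adjusted p = 0.00373), although peri-infarct replicate 2 lay within the contralateral range. H2-M5, a gene of the non-classical H2-M group, went the other way, with 1.2, 0.807, 0.828, 0.99 and 1.41 CPM in contralateral and 0.547, 0.152, 0.339, 0.497 and 0.239 CPM in peri-infarct libraries. H2-M5 fell by 1.54 on the log2 scale (SE 0.34, adjusted p = 0.00201) without overlap, on values close to 3 counts at their lowest. H2-T22 (0.11, adjusted p = 0.504) did not pass, nor did H2-T24 (0.56, adjusted p = 0.0824), which passed with the animal as a block (adjusted p = 0.0165).

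Leaving out 1 library at a time left 26 to 29 members called in this comparison, and 26 were called in the full set and in each of the 10 fits. Psmb10 was the member that lost its call. The difference between the treatments in how many members were called is not a test of a difference between them, which is given below.

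**Figure D2:**
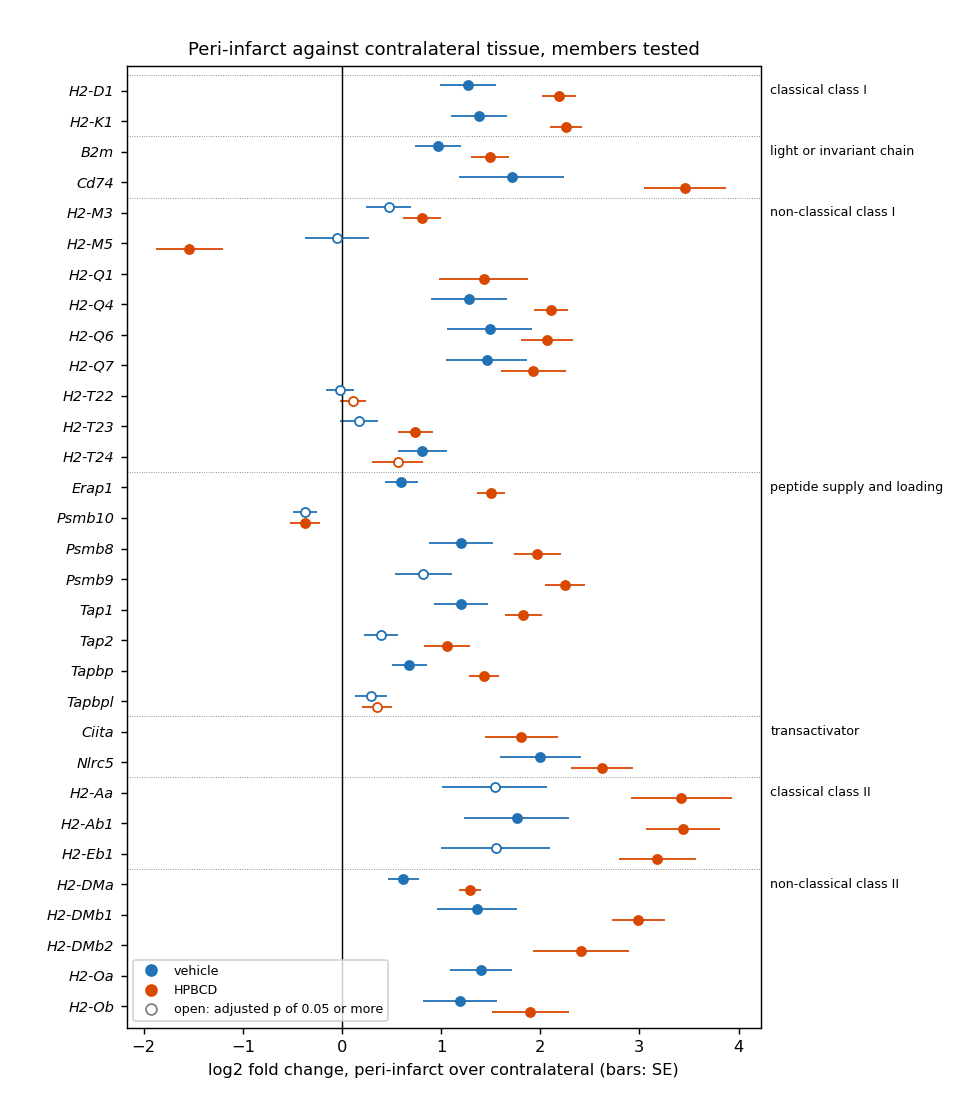
Log2 fold change of peri-infarct over contralateral tissue with its SE for every member tested, in libraries labelled vehicle (blue) and HPBCD (orange), grouped by role, with open symbols at an adjusted p of 0.05 or more. The class II chains and Cd74 reach 3.18 to 3.46 in the libraries labelled HPBCD and Psmb10 and H2-M5 lie left of 0.

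The proteasome subunits can be read against the constitutive subunits they replace, Psmb5 for Psmb8, Psmb6 for Psmb9 and Psmb7 for Psmb10, as ratios of CPM within a library. Psmb8 came to 4.11 to 11.8 per 100 Psmb5 in vehicle contralateral and 9.43 to 40.1 in vehicle peri-infarct libraries, and to 6.68 to 11 and 28.7 to 79.0 in the corresponding HPBCD libraries. Psmb9 came to 2.19 to 4.58, 3.86 to 8.6, 1.79 to 2.83 and 9.84 to 15.1 per 100 Psmb6 in the same order. The HPBCD peri-infarct ratios of Psmb9 thus lay above those of every other library. Psmb10 came to 33.8 to 53.5, 33.7 to 40.5, 41.7 to 51.4 and 34.9 to 55.7 per 100 Psmb7, with overlap between the regions within each treatment. The ratios carry no length correction and compare a pair across libraries, not subunits with each other.

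In CPM, Psmb8 measured 1.98, 3.6, 3.08, 2.45 and 1.43 in vehicle contralateral and 5.61, 2.57, 8.71, 6.74 and 5.32 in vehicle peri-infarct libraries. In the libraries labelled HPBCD it measured 3.25, 1.82, 2.69, 2.97 and 2.99 against 8.59, 7.1, 9.89, 17.7 and 10.6 CPM and rose by 1.97 (SE 0.24, adjusted p = 2.49e-05). The groups overlapped in libraries labelled vehicle only. Psmb10, by contrast, measured 49.7, 29.6, 30.1, 34.2 and 39.9 CPM in HPBCD contralateral and 28.3, 24.2, 24.8, 34.5 and 30.6 CPM in HPBCD peri-infarct libraries. Psmb10 fell by 0.37 on the log2 scale (SE 0.15, adjusted p = 0.0496) with overlapping groups, and its adjusted p in libraries labelled vehicle was 0.0519 at the same size.

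**Figure D3:**
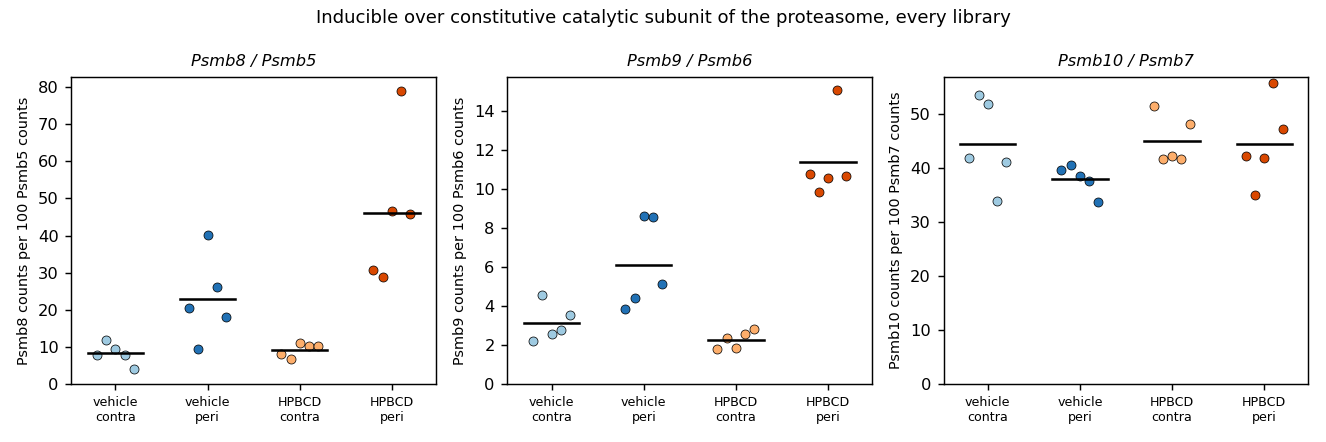
Interferon-induced proteasome subunit per 100 of the constitutive subunit it replaces (ratio of CPM) in every library, 5 per group with bars at the group means, for Psmb8, Psmb9 and Psmb10. Psmb8 reaches 79.0 and Psmb9 15.1 in HPBCD peri-infarct libraries, whereas the Psmb10 ratios of the regions overlap within each treatment.

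The second question is how peri-infarct tissue differed between libraries labelled HPBCD and vehicle. The 3 class II chains tested, Cd74, H2-DMb1 and H2-DMb2 were higher under the HPBCD label, about 2- to 3-fold, as were Erap1, Tap2, Tapbp and Psmb9 by smaller amounts and H2-T23. The classical class I chains did not pass. Of 30 members tested, 11 were higher (36.7%) and 0 lower, where 12.4% of all 16224 genes tested were higher and 9.0% lower. The median log2 difference was 0.67 over the members tested and 0.01 over all genes tested.

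H2-Aa measured 7.55, 2.57, 13.6, 14.6 and 5.22 CPM in the vehicle peri-infarct libraries and rose by 1.55 over them in the HPBCD libraries given above (SE 0.40, adjusted p = 0.025), with every HPBCD value above every vehicle value. H2-Eb1 measured 7.81, 2.16, 15.4, 13.3 and 6.71 CPM in vehicle libraries, its difference was 1.45 (SE 0.43, adjusted p = 0.0367), and the highest vehicle library (15.4) lay just under the lowest HPBCD library (15.6). H2-Ab1 (1.37, SE 0.43, adjusted p = 0.0448) and Cd74 (1.38, SE 0.44, adjusted p = 0.046) passed with overlapping groups. H2-DMb2 was low, at 0.357, 0.462, 0.565, 0.613 and 0.335 CPM against 0.758, 0.812, 1.36, 2.1 and 1.48 CPM, and rose by 1.45 (SE 0.33, adjusted p = 0.0182) without overlap, having entered through its HPBCD values. H2-DMb1 was higher by 1.10 (SE 0.32, adjusted p = 0.0363), whereas H2-DMa (0.16, adjusted p = 0.471), H2-Oa (-0.13, adjusted p = 0.834) and H2-Ob (0.25, adjusted p = 0.632) did not pass.

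Erap1, the peptide trimmer, measured 11.7, 10.1, 17.3, 16.8 and 13.7 CPM in vehicle and 21.8, 20.2, 28.9, 31.7 and 23.5 CPM in HPBCD peri-infarct libraries. It rose by 0.85 (SE 0.17, adjusted p = 0.0138) with no overlap and was the 1 member called in the full set and with each library left out in turn. Tap2 measured 8.52, 8.26, 9.95, 10.4 and 9.58 CPM against 13.1, 11.5, 16.2, 22.4 and 14.3 CPM and rose by 0.72 (SE 0.16, adjusted p = 0.018), again without overlap. Tapbp (0.78, SE 0.21, adjusted p = 0.0279), Psmb9 (0.87, SE 0.25, adjusted p = 0.036) and H2-T23 (0.67, SE 0.21, adjusted p = 0.0411) were higher with overlapping groups.

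H2-D1 (0.70, SE 0.30, adjusted p = 0.109), H2-K1 (0.66, SE 0.29, adjusted p = 0.116) and B2m (0.59, SE 0.27, adjusted p = 0.134) did not pass. Vehicle replicate 3, the highest vehicle library for each, lay above 4 of the 5 HPBCD libraries. Ciita measured 0.306, 0.308, 1.3, 0.896 and 0.383 CPM in vehicle libraries and differed by 1.34 (SE 0.46, adjusted p = 0.0579), and Psmb8 differed by 0.89 (adjusted p = 0.0579). Nlrc5 (0.22, adjusted p = 0.671), Tap1 (0.53, adjusted p = 0.158), H2-Q6 (-0.29, adjusted p = 0.547), H2-Q7 (-0.10, adjusted p = 0.825) and Tapbpl (-0.03, adjusted p = 0.898) did not pass. These misses do not show that the levels were alike: for H2-K1 the interval of 2 SE on either side ran from 0.08 to 1.24.

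The count of 11 depended on single libraries. It ranged from 1 without HPBCD replicate 3 to 21 without vehicle replicate 3, and was 3 without vehicle replicate 1, 5 without vehicle replicate 2, 3 without vehicle replicate 5, 3 without HPBCD replicate 4 and 5 without HPBCD replicate 5. Without vehicle replicate 3 the 11 stayed called and B2m, H2-D1, H2-K1, Ciita, Nlrc5, Tap1, Psmb8, H2-DMa, H2-M3 and H2-Q4 were added.

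Whether the regional difference itself differed between treatments was tested as an interaction. Of 31 members 4 were called, all with a larger peri-infarct rise in libraries labelled HPBCD (12.9%), and 0 in the other direction, where 5.03% of all 16758 genes tested were called higher and 4.38% lower. The median was 0.67 over the members tested and 0.01 over all genes tested. Erap1 (0.89, SE 0.23, adjusted p = 0.0243), Psmb9 (1.42, SE 0.37, adjusted p = 0.0269), H2-DMa (0.66, SE 0.19, adjusted p = 0.0352) and H2-DMb2 (2.08, SE 0.60, adjusted p = 0.0368) were the 4 called. H2-DMb2 entered through the HPBCD peri-infarct libraries, since it was too low to be tested between regions in libraries labelled vehicle or between contralateral groups. H2-M5 lay in the other direction just outside the threshold, at -1.51 (SE 0.47, adjusted p = 0.0501), and was called under DESeq2, limma voom and RLE factors (adjusted p of 0.031 to 0.0965 over all alternatives). Neither the classical chains nor Cd74 passed, with H2-Aa at 1.88 (adjusted p = 0.126), Cd74 at 1.75 (adjusted p = 0.111) and H2-K1 at 0.87 (adjusted p = 0.103). Under limma voom H2-Aa, H2-K1, H2-D1, Cd74 and B2m were called, whereas H2-Ab1 and H2-Eb1 were not. H2-K1 and H2-D1 were also called without vehicle peri-infarct replicate 3 or without HPBCD peri-infarct replicate 2. The number called ran from 1 to 13 with 1 library left out, the most being called without vehicle peri-infarct replicate 3. A single member was called without replicate 2 of the vehicle peri-infarct group, without replicate 3 of the HPBCD peri-infarct group and without replicate 2 of the HPBCD contralateral group. The count was 2 without replicate 1 or 5 of the vehicle peri-infarct group, replicate 2 of the vehicle contralateral group, replicate 4 of the HPBCD peri-infarct group or replicate 4 of the HPBCD contralateral group, and 8 without replicate 2 of the HPBCD peri-infarct group. In these 20 fits H2-DMb2 lost its call in 12, H2-DMa in 10, Psmb9 in 2 and Erap1 in 1, and H2-DMa and H2-DMb2 also lost it with no filter on low counts.

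The 4 genes reached this in different ways. For H2-DMa the contralateral groups also lay apart, at 11.2 to 12.2 CPM in vehicle and 7.16 to 9.14 CPM in HPBCD libraries. Psmb9 measured 1.93, 4.09, 2.37, 2.07 and 3.05 CPM in vehicle contralateral and 3.06, 3.59, 6.73, 6.88 and 3.83 CPM in vehicle peri-infarct libraries, and 1.9, 1.67, 1.31, 1.98 and 2.37 CPM against 8.46, 6.39, 8.34, 12.6 and 8.38 CPM in the libraries labelled HPBCD. H2-DMb2 measured 0.33, 0.491, 0.237, 0.326 and 0.443 CPM in vehicle contralateral and 0.15, 0.0505, 0.345, 0.152 and 0.508 CPM in HPBCD contralateral libraries, so some of its values lay under 3 counts. Erap1 lay at 7.26, 10.7, 8.12, 9.95 and 9.45 CPM in vehicle and 7.54, 8.07, 10.3, 9.74 and 8.86 CPM in HPBCD contralateral libraries, which share one range.

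Between the contralateral groups no member passed. Of 27 tested, 0 were higher and 0 lower, where 0.0% of 15469 genes were called in either direction, and the median log2 difference was -0.17 over the members tested and -0.01 over all genes tested. At an unadjusted p under 0.05, 3 members (H2-DMa, H2-Q6 and Psmb9) and 1224 genes stood out, all 3 members lower in libraries labelled HPBCD, and DESeq2 called 45 genes with H2-DMa as 1 member among them. H2-DMa had a log2 difference of -0.50 (SE 0.10, adjusted p = 0.406) and its groups did not overlap. H2-K1 differed by -0.21 (adjusted p = 0.718), with 2 SE on either side running from -0.47 to 0.06.

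**Figure D4:**
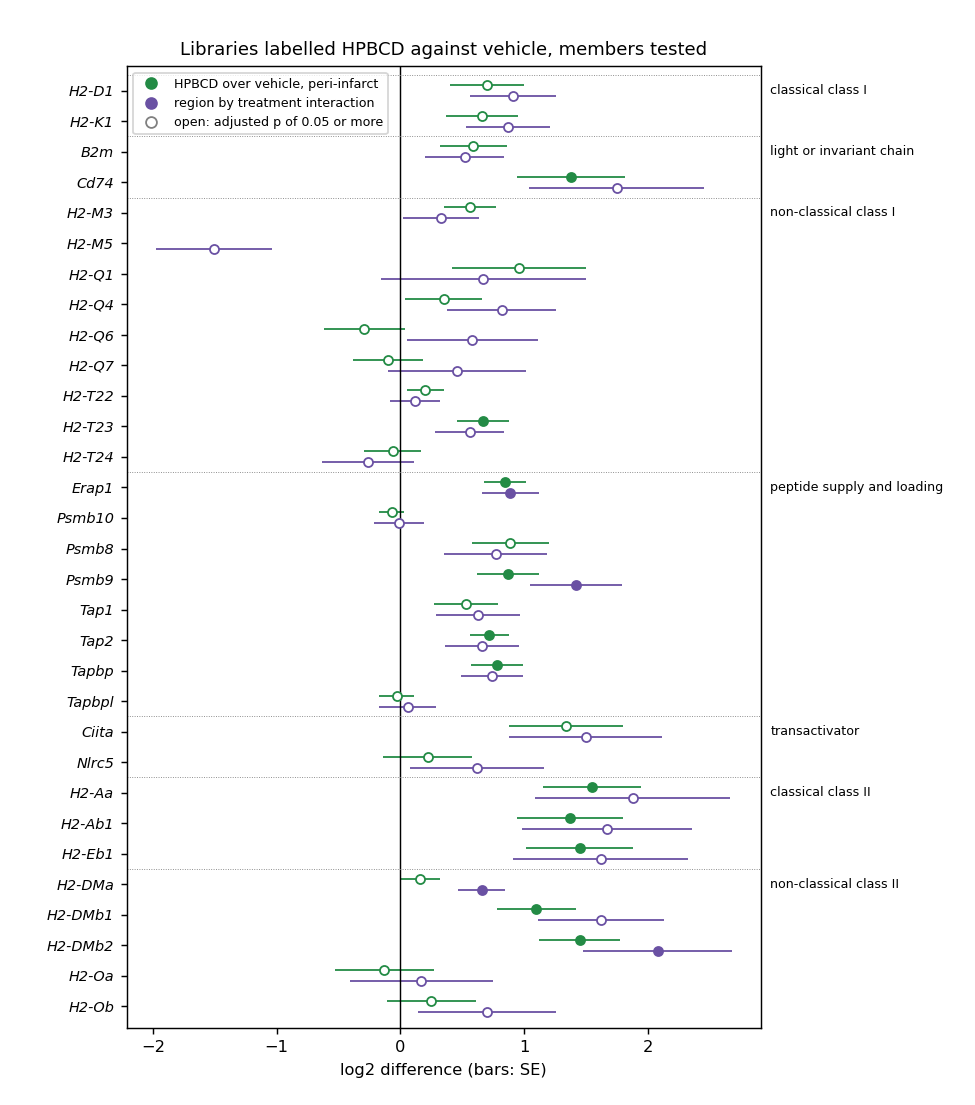
Log2 difference with its SE for every member tested, between peri-infarct libraries labelled HPBCD and vehicle (green) and for the region by treatment interaction (purple), grouped by role, with open symbols at an adjusted p of 0.05 or more. Filled green symbols stand at the class II chains, Cd74, H2-DMb1, H2-DMb2, H2-T23 and 4 supply genes, and filled purple symbols at H2-DMa, H2-DMb2, Erap1 and Psmb9.

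Members tended to be highest, or lowest, in the same peri-infarct library. Of the 31 members, 24 had their highest vehicle peri-infarct value in replicate 3 and 18 their lowest in replicate 2. In HPBCD peri-infarct tissue 27 were highest in replicate 4 and 23 lowest in replicate 2. Contralateral groups were less uniform. In vehicle libraries 20 were highest in replicate 2, but at most 10 were lowest in any 1 library. In HPBCD libraries 17 were lowest in replicate 2, while 10 were highest in replicate 1 and 11 in replicate 3. How many of all genes were highest or lowest in these libraries was not counted. Ratios of chains of one class were steadier than their levels: H2-K1 came to 48.6 to 61.8 per 100 H2-D1 over all 20 libraries, and Cd74 to 256 to 309 per 100 H2-Ab1 in HPBCD peri-infarct libraries, where Cd74 itself ran from 51.7 to 111 CPM. H2-Aa came to 86.6 to 93.2 per 100 H2-Ab1 in that group and to 34.8 to 130 in HPBCD contralateral libraries, where both chains were low.

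Markers of the cells that carry these molecules were followed in the same libraries. The summed level of 8 microglial genes was 279 to 322 CPM in vehicle contralateral, 445 to 1040 in vehicle peri-infarct, 260 to 323 in HPBCD contralateral and 686 to 1160 in HPBCD peri-infarct libraries. All 8 were higher in peri-infarct tissue of both treatments and 0 of 8 passed between peri-infarct groups. A list of 6 perivascular macrophage genes summed to 3.25 to 16.8, 4.41 to 10.8, 3.58 to 12.7 and 12.6 to 33.7 CPM in the same order. Of this list 0 of 5 tested passed between the regions in libraries labelled vehicle, 5 of 6 were higher in those labelled HPBCD, and 4 (Mrc1, Cbr2, F13a1 and Pf4) were higher in peri-infarct libraries labelled HPBCD than vehicle. In HPBCD peri-infarct libraries lists of T cells (6 genes), B cells (6 genes) and dendritic cells (8 genes) summed to 5.3 to 10, 1.68 to 4.31 and 32.8 to 61.6 CPM. Between regions in libraries labelled HPBCD 4 of 4 T cell genes tested and 2 of 2 B cell genes were higher, beside 30.3% of all genes. Of 5 dendritic cell genes 1 was higher and 1 lower. Between peri-infarct groups 0 of 5, 1 of 2 (Cd79a) and 0 of 5 were higher in the same order, with 1 dendritic cell gene lower. Between regions in libraries labelled vehicle, and between contralateral groups, 1 T cell gene and 0 B cell genes passed the filter on low counts. The B cell genes and most T cell genes thus entered through the HPBCD peri-infarct libraries where they were high, so these counts were partly set by the filter. Cd3d, a T cell receptor subunit, was at 0 in all contralateral libraries of both treatments. In whole tissue, more cells of a type and more RNA per cell cannot be told apart, and the part of these cell types in the differences of the members was not tested.

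Members were also set against these sums. Cd74 came to 1.18 to 6.43 CPM per 100 CPM of the microglial list in vehicle contralateral, 1.53 to 6.26 in vehicle peri-infarct and 0.968 to 5.76 in HPBCD contralateral libraries, which share one range. In HPBCD peri-infarct libraries it came to 7.28 to 15.3, above every other library. H2-Ab1 showed the same order, at 0.441 to 2.29, 0.531 to 2.56, 0.317 to 1.88 and 2.62 to 4.95. H2-K1 came to 10.5 to 18.4, 12.9 to 18.5, 10.5 to 14.6 and 16.2 to 24.8, so that its HPBCD peri-infarct range overlapped both vehicle ranges. Per 100 CPM of 5 leukocyte genes it came to 18.3 to 31.7, 27.5 to 41.9, 20.5 to 24.3 and 38.3 to 46.4, where HPBCD peri-infarct libraries overlapped the vehicle peri-infarct libraries alone. H2-D1 came to 32 to 56.3, 44.5 to 69.5, 38.3 to 45.6 and 61.9 to 81.1 on that scale, and Cd74 to 2.38 to 11, 3.12 to 12.6, 1.88 to 10.6 and 16.5 to 28.7, the last without overlap. The 5 leukocyte genes did not all move alike. Between regions 4 were higher in each treatment, with 1 lower in libraries labelled HPBCD, and between peri-infarct groups 0 were higher and 1 lower. Per 100 CPM of the microglial list again, B2m came to 26.6 to 44.6, 24.7 to 34.8, 30.7 to 45.7 and 27.6 to 40.3, with overlap between all groups. Against the perivascular macrophage list Cd74 came to 73.6 to 204, 116 to 691, 61.4 to 128 and 226 to 534 per 100 CPM, where vehicle and HPBCD peri-infarct libraries overlapped. Between regions, 2 of 6 fibroblast and meningeal genes, 2 of 3 ependymal genes and 0 of 4 oligodendrocyte genes were higher and 3 of 5 neuronal genes lower in libraries labelled vehicle, against 6 of 6, 4 of 4 and 4 of 4 higher and 5 of 5 lower in those labelled HPBCD. Fibroblast and meningeal genes also differed between peri-infarct groups, with 5 of 6 higher under the HPBCD label (92 to 254 against 263 to 766 CPM), and 3 of 5 neuronal genes were lower (3570 to 5410 against 1940 to 4010 CPM). Of 4 ependymal genes 3 were higher under the HPBCD label (18.1 to 46.3 against 68.8 to 135 CPM, without overlap) and 4 in the interaction. The interaction also called 3 fibroblast and meningeal genes and 1 oligodendrocyte gene higher and 3 neuronal genes lower. Of 5 astrocyte genes 3 were higher between regions in each treatment, 1 between peri-infarct groups and 1 in the interaction. Of 6 endothelial genes 0 passed between regions in libraries labelled vehicle, and 1 was higher and 2 lower in those labelled HPBCD. Between peri-infarct groups 1 endothelial gene was higher, as was 1 in the interaction. The part of these in the differences of the members was not tested.

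**Figure D5:**
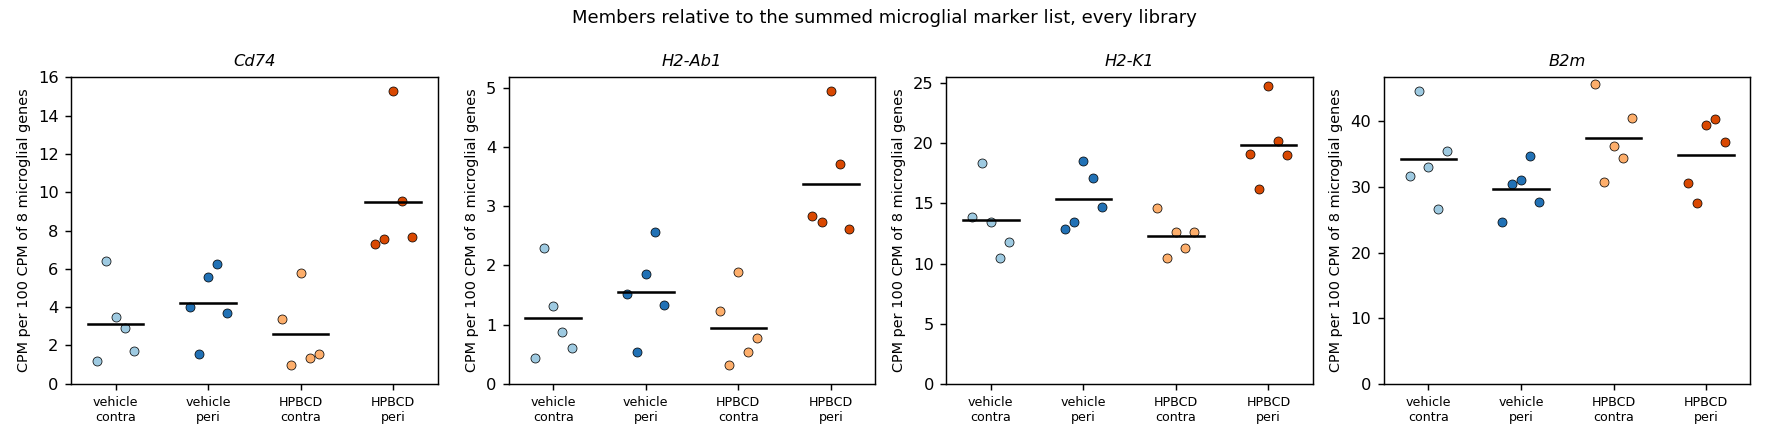
Level of Cd74, H2-Ab1, H2-K1 and B2m per 100 CPM of the summed 8 microglial genes in every library, 5 per group with bars at the group means. Cd74 lies at 7.28 to 15.3 in HPBCD peri-infarct libraries and at most at 6.43 elsewhere, while the B2m points of all groups overlap.

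Other genes of the pathway, 46 of them found, were followed from a list drawn up by function. In libraries labelled vehicle 18 of 39 tested were higher in peri-infarct tissue and 0 lower (median 0.43, beside 10.5% of all genes higher), led by the lysosomal reductase Ifi30 (2.04), the class II protease Ctss (1.90) and the myeloid regulator Irf8 (1.81). In libraries labelled HPBCD 27 of 42 were higher and 3 lower (median 0.98, beside 30.3% of all genes higher), with the T cell coreceptors Cd8a (4.20) and Cd4 (3.60) and the class I receptor Pirb (3.43) leading the rise, and the proteasome genes Psme3 (-0.36), Psmb5 (-0.33) and Psmb7 (-0.32) falling. Cd4 stood at 55.2 CPM in vehicle contralateral replicate 1 against 1.23 to 2.78 CPM in the other libraries of that group.

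Between peri-infarct libraries 13 of 42 were higher under the HPBCD label and 2 lower (median 0.31, beside 12.4% of all genes higher), led by the costimulatory ligand Cd80 (1.95), Pirb (1.64) and the neonatal Fc receptor Fcgrt (1.09), with Psme3 (-0.37) and Psmb7 (-0.28) lower. The interaction called 4 of 43 higher and 0 lower (median 0.39, beside 5.03% of all genes higher), among them Fcgrt (1.16), the costimulatory ligand Icosl (1.02) and the interferon gamma receptor chain Ifngr1 (0.85), and 0 of 39 passed between contralateral groups. Ifng itself, the gene of interferon gamma, lay at 0 to 0.168 CPM over all libraries and entered no comparison.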

How the data were processed

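Stranded poly(A) RNA libraries from dissected brain tissue were sequenced as paired reads. Per the submitters' processing notes and the study's methods, the authors used bcl2fastq 2.19, Trimmomatic 0.32, STAR 2.5.2b on GRCm38 and HTSeq, and deposited 1 table of raw read-pair counts per library. The annotation release and strand option are not given in the sources used here, so reads shared by overlapping genes (14 members overlap another gene's exons) or by near copies may be lost. The htseq-count lines that name no gene were left out, among them reads outside genes (4.39% to 9.5% per library), reads in several genes (3.94% to 8.03%) and reads with several alignments (16.58% to 24.3%).

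Counts were scaled by TMM, filtered with filterByExpr and tested with edgeR 4.0.16 in R 4.3.3 (quasi-likelihood F test, two-sided, only the groups compared, all 4 groups for the interaction), with Benjamini-Hochberg adjustment over all genes tested and a threshold of 0.05. Adjusted p-values with no other name are from this test. CPM are on the TMM scale. The script was tested on simulated data. Alternatives were DESeq2 1.42.0, voom in limma 3.58.1, RLE factors, no filter, at least 10 counts in every library, the replicate number as a block, each library left out and members without exon overlap alone.

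The members and gene lists were chosen with earlier results of these data known. Each member that passed the filter was open to naming, per-library values went to members chosen by role, called in the interaction or opposed in sign, and pathway genes were named for the 3 largest called changes in each direction. Libraries of the same number within a treatment share an animal identifier, which makes the regions paired. Over 10 pairs the correlation of their deviations from the group means ran from -0.119 to 0.376 (mean 0.112, over 0.1 in 5). Between treatments the number is a name.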

Additional observations from a re-analysis of the deposited data

Results flagged for a closer look

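Among 19 members given in full in the 4 groups, 76 sets of 5 values were screened for a value far from the rest by Dixon's criterion (0.71 for 5 values), which chance meets in about 1 set of 20, and 2 stood out. H2-D1 was lowest in HPBCD contralateral replicate 2, at 56.6 CPM, with the nearest other library at 66.8 CPM. H2-DMa was highest in vehicle peri-infarct replicate 3, at 26.1 CPM, with the nearest at 17.6 CPM.

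The peri-infarct difference was larger in libraries labelled HPBCD than in libraries labelled vehicle for 4 members, tested as an interaction with edgeR's quasi-likelihood test. On the log2 scale it was larger by 0.66 for H2-DMa (adjusted p = 0.0352), by 2.08 for H2-DMb2 (adjusted p = 0.0368), by 0.89 for Erap1 (adjusted p = 0.0243) and by 1.42 for Psmb9 (adjusted p = 0.0269). H2-DMb2 entered this test through its HPBCD peri-infarct values and lost its call in 12 of 20 fits with a library left out and with no filter, and H2-DMa in 10 of 20 and with no filter.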

How the results depend on the processing

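In libraries labelled vehicle the number of members called between regions was 18, and 9 when only members without exon overlap were counted, a smaller set by construction, with 7 to 21 when 1 library was left out. In libraries labelled HPBCD it was 27, with 16 without exon overlap and 19 with at least 10 counts in every library, where 23 members were tested and H2-Aa, Ciita and Nlrc5 among others no longer entered. Between peri-infarct libraries it was 11, with 18 under limma voom, 18 with the replicate block, where between treatments the number is only a name, 6 without exon overlap and 1 to 21 with a library left out. For the interaction it was 4, with 7 under DESeq2, 15 under limma voom, 2 with no filter, 1 without exon overlap, 4 with a term for each animal and 1 to 13 with a library left out. Between contralateral groups it was 0, and 1 under DESeq2. For the counts that moved under another test, filter or library the cause was not tested. With the regions of 1 animal as a replicate block, 13 members were called in libraries labelled vehicle and 28 in libraries labelled HPBCD.

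Of single members, sign changes arose near 0. H2-M5 in libraries labelled vehicle (-0.05) ran from -0.21 to 0.21 with a library left out. H2-Q7 between peri-infarct libraries (-0.10) came to 0.05 under limma voom and ran from -0.22 to 0.20. Psmb10 in the interaction (-0.01) came to 0.18 under limma voom, to 0.01 with at least 10 counts in every library and ran from -0.09 to 0.12. Of 271 alternative values for members in libraries labelled vehicle, 225 kept direction and side of the threshold, as did 290 of 299 in libraries labelled HPBCD, 221 of 286 between peri-infarct libraries and 432 of 489 for the interaction. Genes near 3 counts (H2-DMb2, H2-M5, Ciita) are limited by depth.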

Other observations

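Some H2- symbols annotated as pseudogenes, which were not among the members, were counted as well. H2-Bl averaged 1.03 CPM (SD 0.412, n = 5) in vehicle contralateral and 0.417 CPM (SD 0.266) in vehicle peri-infarct libraries, and 1.23 (SD 0.359) against 0.20 CPM (SD 0.177) in libraries labelled HPBCD. It was lower in peri-infarct tissue of both treatments, with log2 fold changes of -1.3 (adjusted p = 0.0482) and -2.57 (adjusted p = 0.000959) in edgeR's quasi-likelihood test. H2-T-ps was lower in libraries labelled HPBCD, with a log2 fold change of -2.0 (adjusted p = 0.000164), and had -1.21 (adjusted p = 0.0836) in libraries labelled vehicle. These genes, with H2-M5, went against most H2- genes, while H2-Q5 was higher in both treatments (1.90, adjusted p = 0.0402, and 1.49, adjusted p = 0.0316). H2-Bl and H2-T-ps were too low to be tested between peri-infarct groups and entered through their contralateral values. H2-Q5 was too low to be tested between contralateral groups and entered through its peri-infarct values. The direction of these regional differences was thus partly set by the filter on low counts.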
